A study of Mus musculus with 16 samples.

Results

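The genes described here are 10 components of myostatin, TGF-beta and BMP signaling, namely the ligands Mstn, Inhba, Tgfb1, Tgfb2, Tgfb3 and Bmp4, the secreted antagonist Fst and the target genes Id1, Id2 and Id3. They were taken by gene name from one-color Agilent mouse arrays, on which they are 10 of 34836 gene names and have 12 of 55681 distinct probes. RNA came from myoblasts of male C57Bl/6J mice aged 11 to 13 weeks, the activated progeny of muscle satellite cells, in 2 cultures. Dispersed myoblasts were grown off the fiber, with 1 mouse per preparation, and myofiber-associated myoblasts were stripped by trypsin from the explanted myofibers on which they had been cultured, with 2 mice per preparation. Each culture was sampled 48 and 72 hr after isolation on 4 arrays each, 16 in all. The arrays of a group are numbered as in the labels (dispersed 48 hr, 1 to 4; dispersed 72 hr, 5 to 8; myofiber-associated 72 hr, 1 to 4; myofiber-associated 48 hr, 7 to 9), and the remaining myofiber-associated 48-hr array carried a pool of 2 preparations and is called the pooled array. No group received a drug or carried a modified allele. Each culture had a slide to itself, and slide and culture therefore cannot be told apart in any comparison between the cultures.

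Ligands of the TGF-beta superfamily bind pairs of serine/threonine kinase receptors on the cell surface. TGF-betas, activins and myostatin signal mainly through SMAD2 and SMAD3, and BMPs through SMAD1, SMAD5 and SMAD9, which turn on the Id genes. In skeletal muscle, myostatin made by muscle fibers restrains growth, follistatin (Fst) binds activins and myostatin outside the cell, and ID proteins bind the E-protein partners of MYOD1 and MYOG and so hold back differentiation.

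Of the 10 genes, 7 had a promoter in the RefSeq table used here (mouse build GRCm38.p6), and 3 of these are printed, Id2 and Id3 because both rose in myofiber-associated myoblasts and Mstn because it was measurable in 1 culture only. Each sequence is the 250 bases before the start of the gene, 5′ to 3′ on the strand of the gene, and capitals mark matches on either strand to GGCGCC (the GC-rich SMAD element), CAGAC (the SMAD box) or CANNTG (the E-box, bound by basic helix-loop-helix proteins such as MYOD1).
Id2, chr12:25096093-25096342, minus strand: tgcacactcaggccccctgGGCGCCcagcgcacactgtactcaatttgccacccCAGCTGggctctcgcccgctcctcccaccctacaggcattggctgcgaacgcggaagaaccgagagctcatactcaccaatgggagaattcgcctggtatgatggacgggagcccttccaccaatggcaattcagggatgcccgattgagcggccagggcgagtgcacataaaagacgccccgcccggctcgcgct
Id3, chr4:136143572-136143821, plus strand: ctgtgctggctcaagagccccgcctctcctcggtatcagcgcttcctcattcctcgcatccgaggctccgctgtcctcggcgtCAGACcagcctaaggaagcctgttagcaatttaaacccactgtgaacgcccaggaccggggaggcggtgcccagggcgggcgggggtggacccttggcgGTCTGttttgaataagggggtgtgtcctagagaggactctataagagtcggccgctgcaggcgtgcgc
Mstn, chr1:53061390-53061639, plus strand: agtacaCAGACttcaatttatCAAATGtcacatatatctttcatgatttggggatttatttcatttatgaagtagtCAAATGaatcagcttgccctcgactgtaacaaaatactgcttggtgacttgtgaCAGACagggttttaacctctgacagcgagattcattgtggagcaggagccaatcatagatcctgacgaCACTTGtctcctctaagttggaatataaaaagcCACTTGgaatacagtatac
The Id2 window held 1 GGCGCC and 1 E-box, the Id3 window 2 SMAD boxes and no E-box, and the Mstn window 2 SMAD boxes and 4 E-boxes. Of all 32841 promoter windows of this length, 9.59% held GGCGCC, 42.2% the SMAD box and 66.2% the E-box. A match is a run of letters and not a measured binding site. No 2 of the marked matches overlap. Of the other promoters, that of Tgfb2 held 2 SMAD boxes and 1 E-box, that of Bmp4 3 E-boxes, and those of Inhba and Tgfb1 none of the 3 motifs. Promoters of Fst, Tgfb3 and Id1 were not analysed here.

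Signals are given as log2 of the normalized intensity of a gene's brightest probe, so that a difference of 1 is a 2-fold difference, and levels are compared only within a probe. Between 55.2% and 64.3% of an array's gene spots were well above background, and no gene spot was saturated. All 10 myoblast markers on the marker list, among them Pax7, Myod1 and Des, were well above background on all 16 arrays. The labels describe the stripped preparations as free of myofiber RNA, yet all 12 markers of adult myofibers (Acta1, Ckm, Myh4 and others) were well above background on the 8 myofiber-associated arrays, and the log2 of their summed signal was 20.94 to 21.40 on the 48-hr and 18.97 to 20.89 on the 72-hr arrays of this culture, against 16.47 to 17.01 on the dispersed arrays. Fewer cells of a type and less RNA per cell cannot be told apart in bulk samples such as these. Of the 10 genes, 9 were well above background on every array through at least 1 probe, and Mstn on the myofiber-associated arrays alone.

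**Figure D1:**
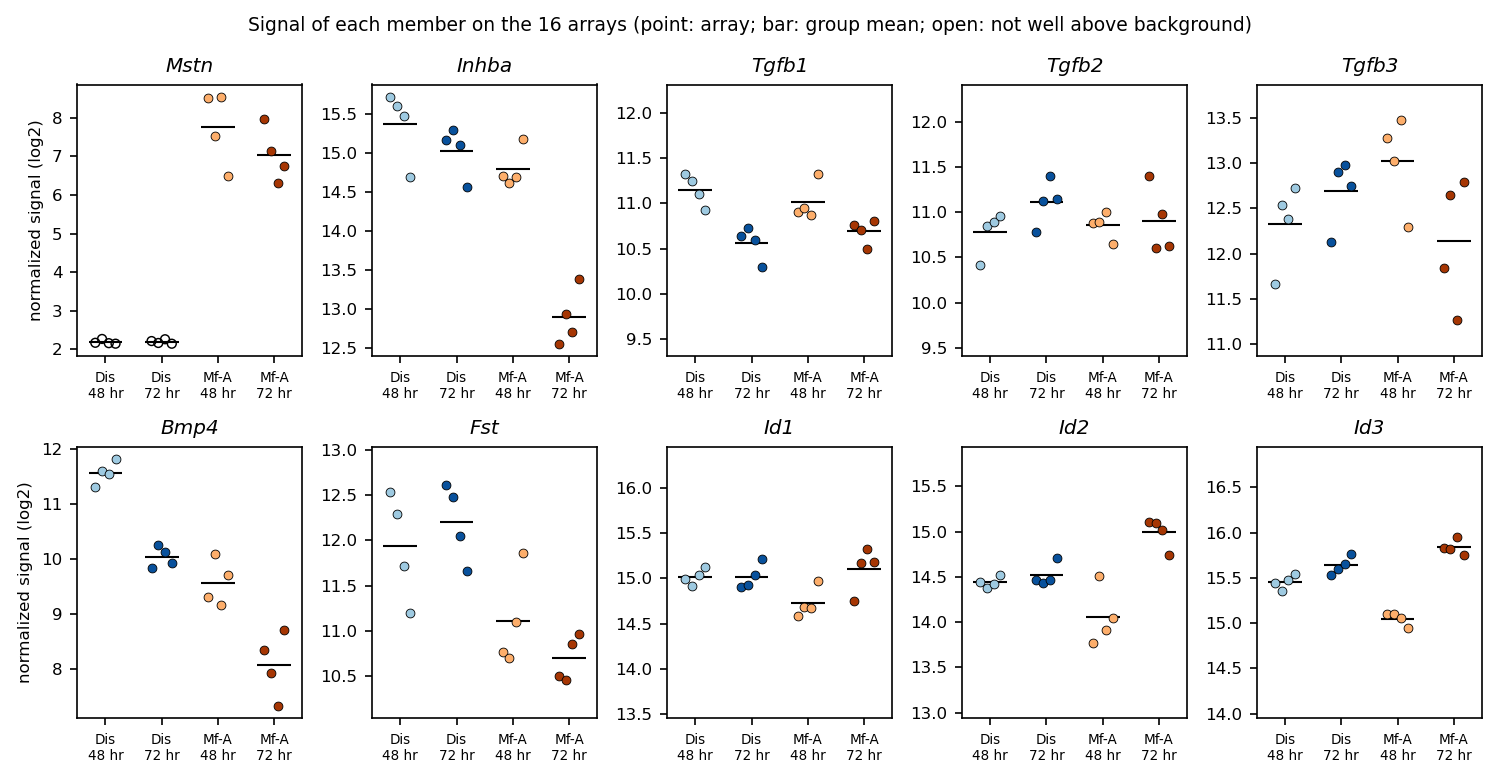
Normalized signal (log2) of each gene's brightest probe on the 16 arrays, by group (Dis, dispersed; Mf-A, myofiber-associated; 4 arrays each). Points are arrays, bars are group means and open points were not well above background; Mstn stood at 2.14 to 2.26 on all dispersed arrays and at 6.31 to 8.55 on the myofiber-associated arrays, and each panel has its own signal axis.

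Over time, at an adjusted p under 0.01, Bmp4 and Tgfb1 fell in dispersed myoblasts, and Inhba fell and Id2 and Id3 rose in myofiber-associated myoblasts. These are 2 of the 9 genes tested in the dispersed culture, where 13.7% of all genes passed (7.38% higher and 6.32% lower at 72 hr), and 3 of 9 in the myofiber-associated culture, where 5.48% passed (3.74% higher and 1.74% lower). The 48- and 72-hr arrays did not overlap for 2 of the 9 in dispersed (31.2% of all genes) and for 5 of the 9 in myofiber-associated myoblasts (26.3%). Bmp4 changed by -1.54 on the log2 scale in dispersed and by -1.49 in myofiber-associated myoblasts, the second outside the threshold (limma, adjusted p = 0.0164). The change over time differed past the threshold between the cultures for Id3 alone, 1 of the 9, where 3.45% of all genes passed (1.09% with the higher and 2.36% with the lower change in dispersed myoblasts). Inhba and Id2 were just outside it, with differences of 1.56 and -0.86 (limma, adjusted p = 0.0101 and 0.0112).

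Between the cultures, Bmp4 and Id3 were lower in myofiber-associated myoblasts at 48 hr, and at 72 hr Inhba, Bmp4 and Fst were lower and Id2 was higher. These are 2 of 9 at 48 hr, where 43.2% of all genes passed (16.1% higher and 27% lower), and 4 of 9 at 72 hr, where 27.1% did (11.5% higher and 15.6% lower). The same numbers of the 9 did not overlap between the cultures, against 56% and 46.4% of all genes. The count at 48 hr was thus under the share over all genes. The median log2 difference over the 9 was -0.38 at 48 hr and -0.21 at 72 hr, beside -0.12 and -0.02 over all genes, so that differences at 48 hr stand against a general shift of -0.12. Comparisons over time and between cultures share arrays and are not independent of each other.

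Mstn encodes myostatin, the muscle-derived ligand that limits muscle mass. Its single probe (chr1:53124482-53124541, mm9, plus strand) read 8.53, 7.53 and 8.55 on myofiber-associated 48-hr arrays 7, 8 and 9 and 6.48 on the pooled array. At 72 hr the same probe read 7.97, 7.13, 6.31 and 6.76 on arrays 1 to 4. The 2 time points overlapped, with means of 7.77 ± 0.98 and 7.04 ± 0.70 (SD, n = 4), a change of -0.73 with a 95% confidence interval of -2.01 to 0.55 (adjusted p = 0.441). On the dispersed arrays it read 2.16, 2.26, 2.15 and 2.14 at 48 hr and 2.21, 2.16, 2.26 and 2.14 at 72 hr, not well above background on any of the 8. Bounds were set against the lowest signal well above background on those arrays. By them Mstn was at least 12.4-fold higher in myofiber-associated myoblasts at 48 hr and at least 8.37-fold higher at 72 hr. The bounds themselves were not tested. The limma test was of the measured values, with log2 differences of 5.59 at 48 hr (adjusted p = 0.000157) and 4.85 at 72 hr (adjusted p = 0.00013). All 8 myofiber-associated arrays lay above all 8 dispersed arrays. Leaving out 1 myofiber-associated array at a time gave bounds of 10.4 to 16.7 at 48 hr and 6.76 to 9.92 at 72 hr. Such bounds hold only for the scanner's own background correction. Under normexp with an offset of 50, which lifts low signals, the log2 differences of Mstn were 2.01 at 48 hr and 1.5 at 72 hr (adjusted p = 0.000855 and 0.00115), lower than the bounds. The median signal of Mstn over all arrays was under the filter of 5, so these values come from the fit without that filter, in which 24.9% of all genes at 48 hr and 13.7% at 72 hr passed between the cultures and 1.34% passed over time in the myofiber-associated culture.

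The adult myofiber markers differed between the cultures together with Mstn. Of the 12 markers, 12 were higher in myofiber-associated than in dispersed myoblasts at 48 hr and 11 at 72 hr, with median log2 differences of 6.04 and 5.52. The part of this difference in the Mstn signal was not tested. Likeness over the 16 arrays was taken as the root mean square difference of values centered on each gene's own mean. It was ranked among the tested genes named by a gene symbol, and other names were passed over. Those that followed Mstn most closely were Mylk2 (0.56), which encodes the skeletal muscle myosin light chain kinase, Rbfox1 (0.61), a splicing regulator of muscle and brain, and Murc (0.62), a muscle caveolar protein. The median over the genes ranked was 2.75, and the likeness is a description with no test. Since Mstn was not well above background on the 8 dispersed arrays, it rests largely on the step between the cultures.

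Bmp4, a ligand of the BMP branch, fell over time in dispersed myoblasts and was lower in myofiber-associated than in dispersed myoblasts at both times. Its bright probe (chr14:47003391-47003450, mm9, minus strand) read 11.32, 11.60, 11.55 and 11.82 on dispersed 48-hr arrays 1 to 4 and 9.83, 10.26, 10.12 and 9.93 on 72-hr arrays 5 to 8. On the myofiber-associated arrays it read 9.31, 10.09 and 9.16 on arrays 7 to 9 and 9.71 on the pooled array at 48 hr, and 8.34, 7.93, 7.32 and 8.71 at 72 hr. Within each culture every 72-hr array was below every 48-hr array, and the order of the groups was dispersed 48 hr, dispersed 72 hr, myofiber-associated 48 hr and myofiber-associated 72 hr, of which only dispersed 72 hr and myofiber-associated 48 hr overlapped. The change over time was -1.54 (SE 0.13, 2.90-fold lower, adjusted p = 0.000145) in dispersed myoblasts. In myofiber-associated myoblasts it was -1.49 (SE 0.32, adjusted p = 0.0164), outside the threshold of 0.01, and 2 alternatives put it inside, namely one fit of all 16 arrays (adjusted p = 0.000542) and the authors' own table (0.00742), as did leaving out 72-hr array 4 (0.00987). Over all 18 alternatives its adjusted p was 0.000542 to 0.0404. The changes of the 2 cultures differed by -0.05, with a 95% confidence interval of -0.83 to 0.73 (adjusted p = 0.938). Between the cultures, Bmp4 was 4.01-fold lower in myofiber-associated myoblasts at 48 hr (log2 difference -2.00, SE 0.21, adjusted p = 0.000115) and 3.89-fold lower at 72 hr (-1.96, SE 0.27, adjusted p = 0.00096).

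A second Bmp4 probe (chr14:47003198-47003257, mm9, minus strand) read 2.09 to 2.44 on the 16 arrays and was well above background on none. Averaging it with the bright probe shrank the Bmp4 change to -0.77 for the dispersed and -0.76 for the myofiber-associated culture, and the differences between cultures to -1.04 at both times, with the same calls. Endothelial markers moved with Bmp4. Of 10 such genes (Pecam1, Cdh5, Kdr and others), 9 fell over time in the dispersed culture (median log2 change -1.43) and 7 in the myofiber-associated culture (-1.89), and 9 at 48 hr and 8 at 72 hr were lower in the myofiber-associated culture. The log2 of their summed signal was 16.73 to 17.16, 15.32 to 15.80, 14.25 to 15.29 and 13.61 to 13.89 in the 4 groups in the order of the Bmp4 levels, with all 10 well above background on all 16 arrays. The part of these cells in the Bmp4 signal was not tested.

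**Figure D2:**
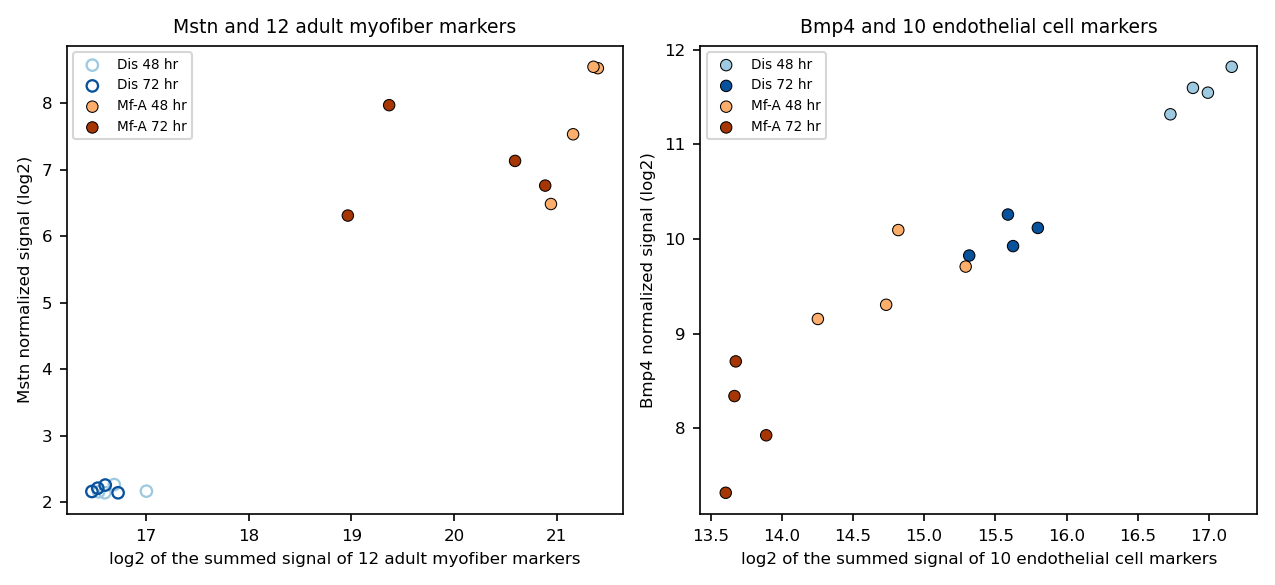
Signal (log2) of Mstn against the log2 of the summed signal of 12 adult myofiber markers (left) and of Bmp4 against that of 10 endothelial cell markers (right), 1 point per array, open where the gene was not well above background. The 8 dispersed arrays lie together at the lower left for Mstn, and the dispersed 48-hr arrays lie at the upper right for Bmp4, between 11.32 and 11.82.

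Inhba, which encodes the subunit of activin A, fell in myofiber-associated myoblasts and was much lower there than in dispersed myoblasts at 72 hr. Its probe (chr13:16118634-16118693, mm9, plus strand) read 14.70, 14.62 and 14.69 on myofiber-associated 48-hr arrays 7 to 9 and 15.17 on the pooled array, against 12.55, 12.94, 12.70 and 13.38 at 72 hr. The dispersed arrays read 15.72, 15.60, 15.47 and 14.69 at 48 hr and 15.17, 15.29, 15.10 and 14.56 at 72 hr. The myofiber-associated 72-hr group stood below every other array, and the other 3 groups overlapped. The fall in myofiber-associated myoblasts was 3.73-fold (log2 change -1.90, SE 0.20, adjusted p = 0.00138), and the change in dispersed myoblasts was -0.34 (SE 0.25, adjusted p = 0.36). The difference between these changes was 1.56 (SE 0.34, adjusted p = 0.0101), just outside the threshold, and it passed under 4 alternatives (adjusted p = 0.00174 to 0.00978) and without myofiber-associated 72-hr array 4, the pooled array or dispersed 72-hr array 8 (0.00368, 0.00882 and 0.00732). Over all 25 alternatives its adjusted p was 0.00174 to 0.0253. At 72 hr Inhba was 4.39-fold lower in myofiber-associated than in dispersed myoblasts (log2 difference -2.14, SE 0.21, adjusted p = 0.0002). Fibroblast markers moved with it. Of 9 tested, 4 fell in the myofiber-associated culture (median log2 change -1.44), and 0 passed limma over time in the dispersed culture, where 2 had an unadjusted p under 0.05. At 72 hr 5 were lower and 1 was higher in the myofiber-associated culture, and the log2 of the summed signal of all 10 was 16.73 to 17.78 on its 48-hr arrays and 15.75 to 16.41 on its 72-hr arrays. The part of these cells in the Inhba signal, and in that of Fst, was not tested.

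Tgfb1, a ligand stored in latent form in the matrix, was measured by 10 identical spots per array, of which 8 to 10 were used (chr7:26489877-26489936, mm9, plus strand). It read 11.33, 11.24, 11.10 and 10.92 on dispersed 48-hr arrays 1 to 4 and 10.64, 10.73, 10.60 and 10.30 on 72-hr arrays 5 to 8, with no overlap. The change of -0.58 (SE 0.12, 1.5-fold lower) passed the test with an adjusted p of 0.00856. This call was lost without any 1 of dispersed 48-hr arrays 1, 2 and 3 and 72-hr arrays 5 to 8 (adjusted p = 0.0118 to 0.0279), and under 75th percentile scaling (0.0129), no filter (0.0218) and a filter that asked for a signal well above background (0.0112). Over all 18 alternatives its adjusted p was 0.002 to 0.0279. In myofiber-associated myoblasts Tgfb1 read 10.91, 10.94 and 10.88 on arrays 7 to 9 and 11.33 on the pooled array at 48 hr, and 10.76, 10.71, 10.50 and 10.80 at 72 hr. These 2 groups did not overlap either, with a change of -0.32 that did not pass (SE 0.13, adjusted p = 0.094). The changes in the 2 cultures differed by -0.26, with a 95% confidence interval of -0.64 to 0.12 (adjusted p = 0.307), and the log2 differences between the cultures of -0.14 at 48 hr and 0.12 at 72 hr did not pass (adjusted p = 0.396 and 0.389).

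Neither Tgfb2 nor Tgfb3, the other TGF-beta isoforms, passed in any comparison. The brighter Tgfb2 probe (chr1:188449333-188449392, mm9, minus strand) lay between 10.42 and 11.40 on all 16 arrays, and all 4 groups overlapped. Its change was 0.33 (95% confidence interval -0.03 to 0.70) in dispersed and 0.05 (-0.37 to 0.47) in myofiber-associated myoblasts, and that of the dimmer probe (chr1:188447534-188447593) was 0.33 and 0.28. Tgfb3, with 8 to 10 identical spots used per array (chr12:87397804-87397863, mm9, minus strand), read 13.28, 13.02 and 13.47 on myofiber-associated arrays 7 to 9 and 12.30 on the pooled array at 48 hr, and 11.84, 12.64, 11.26 and 12.80 at 72 hr. It read 11.66, 12.54, 12.38 and 12.72 in dispersed myoblasts at 48 hr and 12.13, 12.91, 12.98 and 12.74 at 72 hr. The groups overlapped in both cultures, with changes of -0.88 (SE 0.38, adjusted p = 0.117) and 0.37 (SE 0.26, adjusted p = 0.353), and the difference of 1.25 between them did not pass (SE 0.49, adjusted p = 0.093).

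Fst, the antagonist of activins and myostatin, was lower in myofiber-associated than in dispersed myoblasts at 72 hr. Its probe (chr13:115243565-115243624, mm9, minus strand) read 12.61, 12.48, 12.05 and 11.66 on dispersed 72-hr arrays 5 to 8 and 10.50, 10.46, 10.86 and 10.97 on myofiber-associated 72-hr arrays 1 to 4, with no overlap. At 48 hr it read 12.53, 12.29, 11.72 and 11.20 on dispersed arrays 1 to 4, and 10.76, 10.70 and 11.10 on myofiber-associated arrays 7 to 9 and 11.86 on the pooled array, which put the 2 groups in overlap. The log2 difference was -1.50 (SE 0.22, 2.83-fold lower, adjusted p = 0.00124) at 72 hr and -0.83 (SE 0.35, adjusted p = 0.0668) at 48 hr. Over time Fst changed by 0.26 (95% confidence interval -0.48 to 1.01) in dispersed and by -0.41 (-1.0 to 0.19) in myofiber-associated myoblasts, neither past the threshold. Among the tested genes named by a gene symbol, those that followed Fst most closely over the 16 arrays were Soga2 (root mean square difference 0.20), Kcnh2 (0.22), a potassium channel gene, and Hebp2 (0.23). The median over the genes ranked was 0.75.

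Id3 and Id2, which encode inhibitors of basic helix-loop-helix factors, rose in myofiber-associated myoblasts, and the change of their relative Id1 did not pass the test. Id3 read 15.10, 15.10 and 15.06 on arrays 7 to 9 and 14.95 on the pooled array at 48 hr and 15.83, 15.81, 15.95 and 15.75 on arrays 1 to 4 at 72 hr (probe at chr4:135700075-135700249, mm9, plus strand). In dispersed myoblasts it read 15.45, 15.35, 15.48 and 15.55 at 48 hr and 15.53, 15.60, 15.65 and 15.77 at 72 hr, where 1 array of each time point overlapped. The myofiber-associated 48-hr arrays were thus below every other array, and each of the other groups overlapped with its neighbor in level. The rise was 1.72-fold in myofiber-associated myoblasts (log2 change 0.79, SE 0.08, adjusted p = 0.00146), and the change was 0.18 in dispersed myoblasts (SE 0.06, adjusted p = 0.0727). Id3 was the 1 gene of the 9 whose change differed past the threshold between the cultures, by -0.60 (dispersed minus myofiber-associated, SE 0.10, adjusted p = 0.00251), and the call held in all 25 alternatives, with adjusted p of 0.00134 to 0.00811. At 48 hr Id3 was 1.32-fold lower in myofiber-associated than in dispersed myoblasts (log2 difference -0.41, SE 0.07, adjusted p = 0.00189), and at 72 hr the difference was 0.20 (SE 0.08, adjusted p = 0.0605).

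Id2 (chr12:25778904-25778963, mm9, minus strand) read 13.77, 14.51 and 13.92 on myofiber-associated arrays 7 to 9 and 14.04 on the pooled array at 48 hr, and 15.11, 15.10, 15.02 and 14.74 at 72 hr. In dispersed myoblasts it read 14.44, 14.38, 14.42 and 14.52 at 48 hr and 14.47, 14.43, 14.46 and 14.71 at 72 hr. The myofiber-associated 72-hr arrays lay above all others and the other 3 groups overlapped. The rise in myofiber-associated myoblasts was 1.91-fold (log2 change 0.93, SE 0.17, adjusted p = 0.00921), and the change in dispersed myoblasts was 0.08 (SE 0.07, adjusted p = 0.464), with a difference of -0.86 just outside the threshold (SE 0.19, adjusted p = 0.0112). Over all 18 alternatives the adjusted p of the rise was 0.00013 to 0.0348. It lost its call under 5 of the 10 alternatives that kept all arrays (adjusted p = 0.0109 to 0.0219) and without myofiber-associated 72-hr array 1, 2 or 3 or 48-hr array 7, 9 or the pooled array (0.0123 to 0.0348). The difference between the changes passed without myofiber-associated 72-hr array 4, 48-hr array 8 or the pooled array and in the authors' table (0.00103 to 0.00888), and its adjusted p was 0.00103 to 0.0276 over all 25 alternatives. At 72 hr Id2 was 1.39-fold higher in myofiber-associated myoblasts (log2 difference 0.47, SE 0.10, adjusted p = 0.00748), a call lost without myofiber-associated array 1, 2 or 3 or dispersed array 5, 6 or 7 (0.0166 to 0.0262) and under normexp (0.0116), 75th percentile scaling (0.0111) and no filter (0.0152), with 0.00237 to 0.0262 over all 16 alternatives.

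Id1, the third of these genes (probe at chr2:152563083-152563142, mm9, plus strand), read 14.99, 14.91, 15.04 and 15.12 in dispersed myoblasts at 48 hr and 14.90, 14.92, 15.03 and 15.22 at 72 hr, and its change there was 0.00 (95% confidence interval -0.18 to 0.19). In myofiber-associated myoblasts it read 14.58, 14.68 and 14.67 on arrays 7 to 9 and 14.97 on the pooled array at 48 hr, and 14.75, 15.17, 15.32 and 15.18 at 72 hr. These groups overlapped, with a change of 0.38 (SE 0.15, adjusted p = 0.0892). Among the tested genes named by a gene symbol, those closest to Id1 over the 16 arrays were Tmem234 (root mean square difference 0.12), Htra2 (0.12), a mitochondrial protease gene, and Fzr1 (0.12), an activator of the anaphase-promoting complex. The median over the genes ranked was 0.34. Of the 10 myoblast markers, 4 rose in the myofiber-associated culture, beside Id2 and Id3, and 3 rose in the dispersed culture, where no Id gene passed. At 48 hr 1 of the 10 was higher and 4 were lower in the myofiber-associated culture, and at 72 hr 3 were higher. In the myofiber-associated culture the log2 of their summed signal had a median of 17.88 over the 48-hr and 18.27 over the 72-hr arrays, which did not overlap. The adult myofiber markers given beside Mstn were lower at 72 than at 48 hr in the myofiber-associated culture. The part of the changes of either marker list in the Id signals was not tested. Of the 6 genes of E proteins and the myogenic factors they pair with (Tcf3, Tcf4, Tcf12, Myod1, Myf5 and Myog), 0 passed limma over time in the myofiber-associated culture, where 4 were higher at an unadjusted p under 0.05, and 2 rose (Myog, Myf5) and 1 fell (Tcf4) in the dispersed culture.

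**Figure D3:**
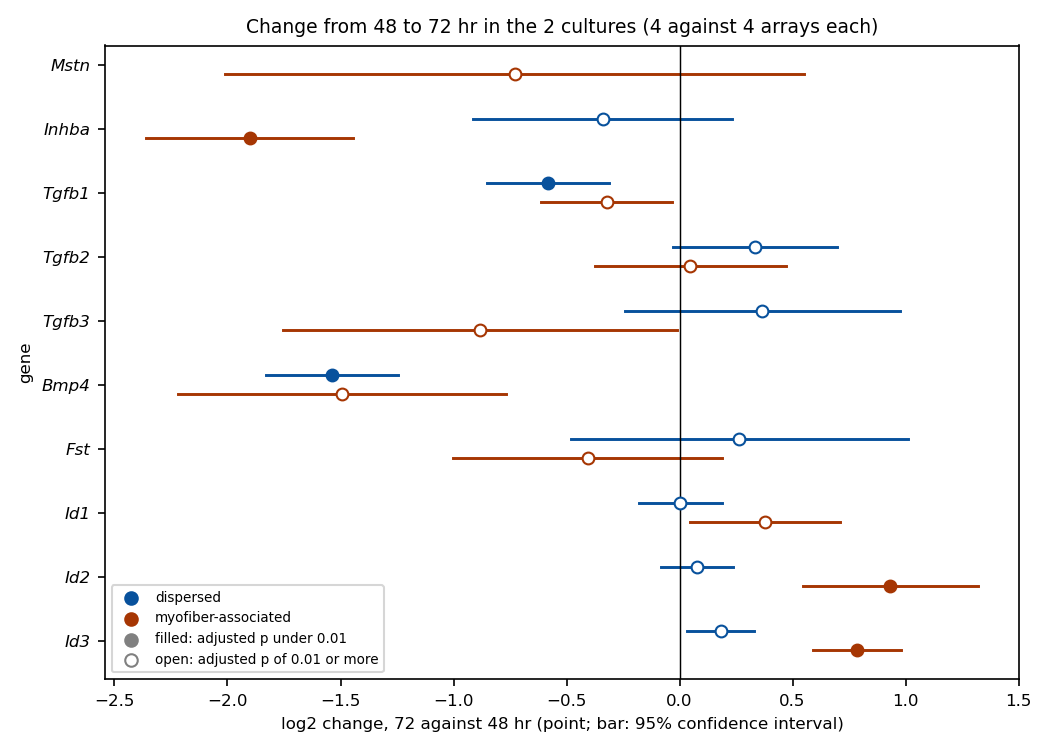
Log2 change from 48 to 72 hr of each gene in dispersed (blue) and myofiber-associated (brown) myoblasts, with 95% confidence intervals; filled points have an adjusted p under 0.01. Bmp4 lies near -1.5 in both cultures, while Inhba, Id2 and Id3 are filled in myofiber-associated myoblasts only; Mstn is from the fit without a filter on low signal and is drawn for the myofiber-associated culture alone.

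**Figure D4:**
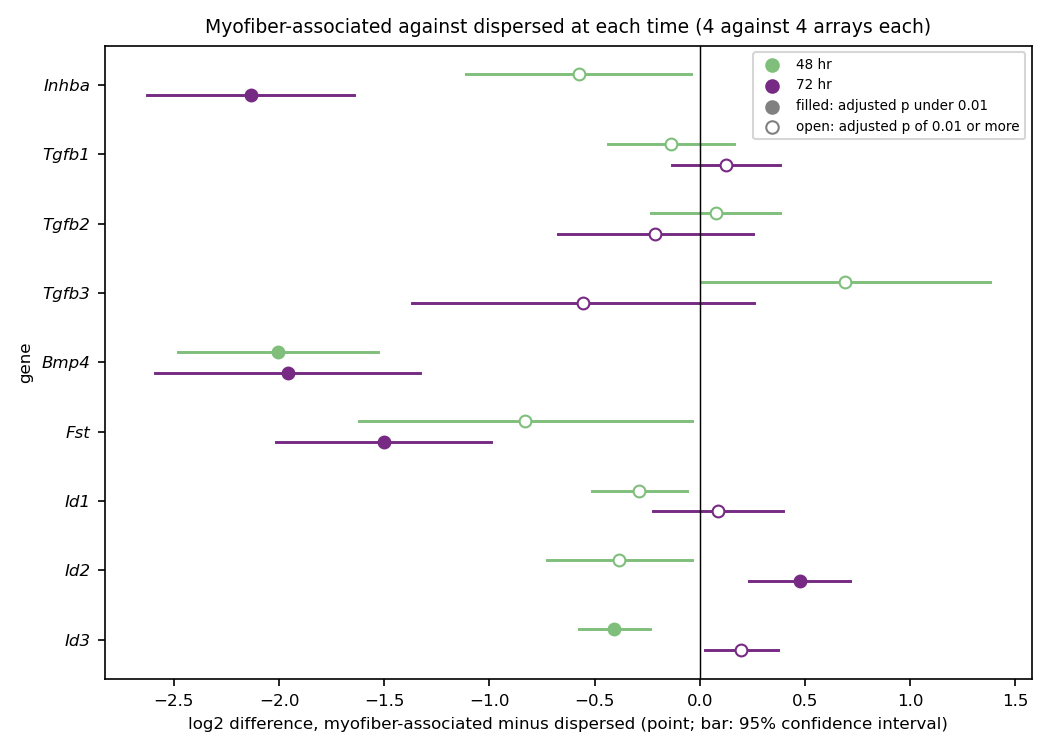
Log2 difference between myofiber-associated and dispersed myoblasts at 48 hr (green) and 72 hr (purple) for the 9 genes tested, with 95% confidence intervals; filled points have an adjusted p under 0.01. Bmp4 is filled at both times, Id3 at 48 hr only, and Inhba, Fst and Id2 at 72 hr only; Mstn, with a lower bound only, is not drawn.

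The rest of the pathway was followed through 8 gene lists that hold 98 further genes, 83 of them tested. Over time 10 of these rose and 14 fell in the dispersed culture, and 3 rose and 8 fell in the myofiber-associated culture. Over all genes, 7.38% rose and 6.32% fell in the dispersed culture, and 3.74% rose and 1.74% fell in the myofiber-associated culture. Among 16 receptors and co-receptors, 5 fell in the dispersed and 3 in the myofiber-associated culture (median log2 changes -0.27 and -0.20, beside 0.02 and 0.06 over all genes), and 0 rose past the threshold by limma, with 5 and 1 higher at an unadjusted p under 0.05. Eng and Acvrl1, receptors best known from endothelial cells, fell in both, by 1.22 and 0.65 on the log2 scale in dispersed and by 1.11 and 0.99 in myofiber-associated myoblasts. The endothelial markers given beside Bmp4 fell too, and their part in the receptor signals was not tested. Of 8 TGF-beta, activin and myostatin ligands, 2 rose and 1 fell in the dispersed culture, and of 8 BMP and GDF ligands 2 fell there and 1 in the myofiber-associated culture. Of 13 secreted antagonists 1 rose and 1 fell in the dispersed and 1 fell in the myofiber-associated culture, and of 9 genes of latent TGF-beta 2 rose and 1 fell in each. Of 15 SMADs and their regulators 2 rose and 1 fell, and of 7 BMP targets 1 rose and 3 fell, in the dispersed culture. Of 14 TGF-beta targets 3 rose and 1 fell in the dispersed and 3 fell in the myofiber-associated culture. The dispersed culture had its largest rises in Grem1, a BMP antagonist (log2 change 1.36), Smad9, a BMP-branch SMAD (1.29), and Inha, the inhibin subunit (1.03), and its largest falls in the BMP and Notch target Hey1 (-1.82), the activin B subunit gene Inhbb (-1.54) and the matrix gene Tgfbi (-1.39). The myofiber-associated culture had its largest rises in Ltbp1 (1.07) and Ltbp3 (0.95), which bind latent TGF-beta, and in the BMP target Atoh8 (0.86), and its largest falls in the co-receptor Tgfbr3 (-1.65), the ligand Bmp2 (-1.40) and Col1a1 (-1.16). Col1a1 is itself on the list of fibroblast markers given beside Inhba, of which 4 of 9 fell in this culture. The part of fibroblasts in the Col1a1 signal was not tested. Bmp2 also fell in dispersed myoblasts (-0.81, adjusted p = 0.00334).

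**Figure D5:**
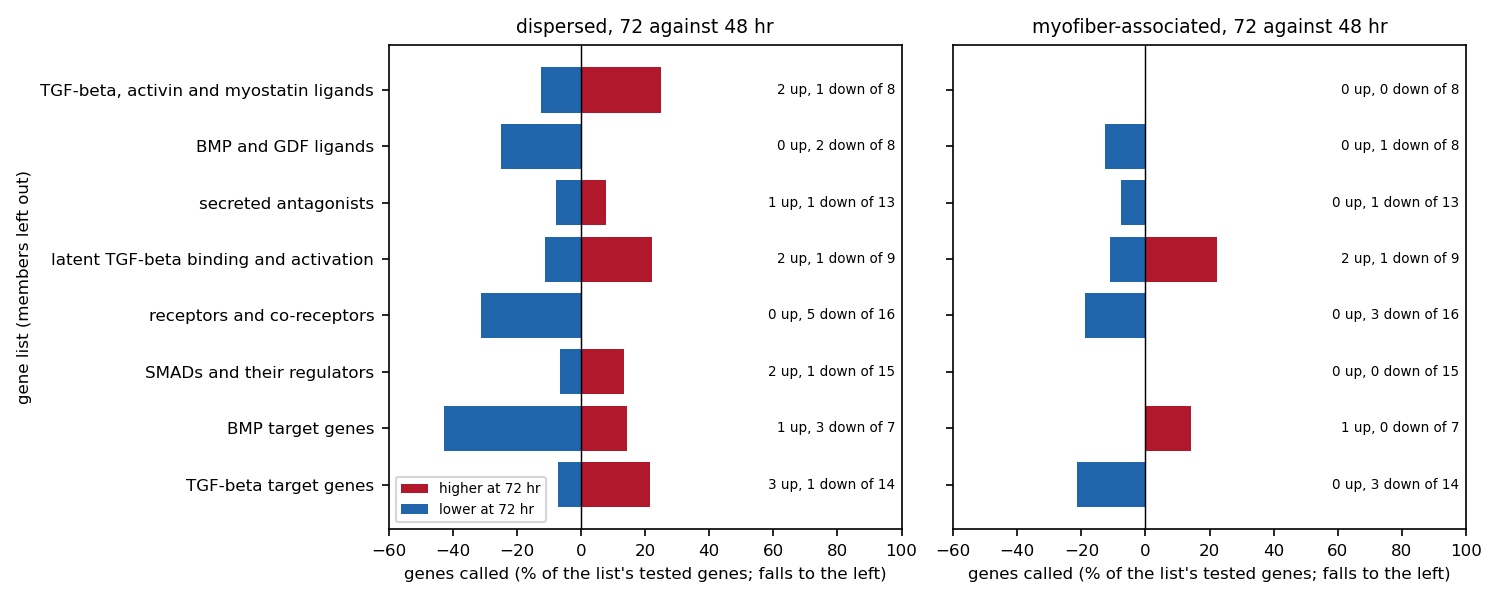
Percent of the tested genes of each pathway list that rose (red, to the right) or fell (blue, to the left) over time in the dispersed (left) and the myofiber-associated (right) culture at an adjusted p under 0.01, without the 10 genes described above; counts are printed at the right. Receptors fell in both cultures, 5 of 16 and 3 of 16, and 0 rose past that threshold. Over all genes, 7.38% rose and 6.32% fell in the dispersed culture, and 3.74% rose and 1.74% fell in the myofiber-associated culture.

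Of 14 TGF-beta target genes, 3 changed differently in the 2 cultures, all 3 with the higher change in dispersed myoblasts, among them Ctgf (1.53, adjusted p = 0.00373) and Cyr61 (0.91, adjusted p = 0.00283), which encode matricellular proteins. Of 7 BMP targets outside the 10 genes, 2 changed differently, with the lower change in dispersed myoblasts, Hey1 (-1.54, adjusted p = 0.00471) and the inhibitory SMAD gene Smad6 (-0.89, adjusted p = 0.00631), as did Inhbb (-1.93, adjusted p = 0.00213). The change differed between the cultures for 3.45% of all genes. Compared with dispersed myoblasts, 18 of the 83 genes stood higher and 24 lower on the fiber at 48 hr, and 16 higher and 26 lower at 72 hr. Over all genes, 16.1% were higher and 27% lower at 48 hr, and 11.5% higher and 15.6% lower at 72 hr. Acta2 (smooth muscle actin), Ctgf and the ligand gene Bmp6 had the largest negative log2 differences, -4.45, -3.33 and -2.68 at 48 hr and -3.82, -4.85 and -3.26 at 72 hr. Itgb6, an integrin subunit that activates latent TGF-beta, was higher by 5.06 at 48 hr and 2.92 at 72 hr. Hfe2, a BMP co-receptor, and Wfikkn2, a binder of myostatin, were also higher at both times, and were well above background on all myofiber-associated arrays but on 1 and 2 of the 4 dispersed 48-hr arrays and on 0 of the 72-hr arrays, so that no fold and no rank are given. The adult myofiber markers given beside Mstn were higher in the same comparisons, and their part in these signals was not tested. Acta2 is itself 1 of the 8 markers of pericytes and smooth muscle, so that their counts and summed signal contain it. Of the 8, 4 were lower in myofiber-associated myoblasts at 48 hr and 2 at 72 hr, with median log2 differences of -1.25 and -0.39. The log2 of the summed signal was 15.40 to 16.52 on dispersed and 13.37 to 13.99 on myofiber-associated arrays. The part of pericytes and smooth muscle cells in the Acta2 signal was not tested.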

How the data were processed

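The 16 RNA samples were each measured on a one-color Agilent mouse array. The authors deposited each spot's fluorescence intensity as the scanner software gave it, background-corrected per the file headers, and a second table with the log2 ratio of every 72-hr array over the 48-hr mean of its culture. Spots that the scanner software marked as outliers were left out, a step not taken from the study. Following the study's methods, log2 intensity was taken, arrays went through loess against their culture's 48-hr mean (span 0.3, with 4 iterations) and then quantile normalization, identical probes were averaged, the brightest probe stood for its gene, and 20317 genes with a median of at least 5 were tested. The annotation of the 2 slides differs in the names of 1831 probes, none of them a probe of the 10 genes, and that of the first slide was used.

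Groups were compared with limma's moderated test, two-sided, 4 against 4 arrays, and the difference of the changes on 16 arrays, p-values being adjusted by Benjamini-Hochberg across the genes tested, at a threshold of 0.01. The samr package that the study used was not used here. The fit was tested on simulated data. For Mstn the bound is the mean of the bright group over the mean, per dim array, of the lowest signal well above background. The 10 genes and all lists were chosen with earlier results of these data known. Named pathway genes are the up to 3 largest rises and falls of each comparison, and Eng, Acvrl1, Bmp2 in dispersed myoblasts and the called genes among E proteins and myogenic factors were named after their values were seen. The values of 1 gene that the rule names are not reported here. Replicates are separate preparations, and the number of arrays limits precision. Alternatives were normexp background correction (offset 50), 75th percentile scaling, quantile normalization alone, no filter and a filter on signal well above background. That filter kept genes well above background on all 4 arrays of at least 1 group. Others were the mean of probes, each probe as a row, a single fit of 16 arrays and the slide row as a block. The last were the authors' table and leaving out each array. The arrays were analysed in R 4.3.3 with limma 3.58.1 and with version 1.17.8 of the data.table package. Tables and figures were made in Python 3.11.15, with pandas at 2.3.3, numpy at 2.4.6 and matplotlib at 3.10.9. Proteins, for which no sequences were used here, were not compared.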

Additional observations from a re-analysis of the deposited data

Results flagged for a closer look

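In 3 groups of values 1 array stood apart from the other 3 of its group. The gap took up more than 0.83 of the range (Dixon's 95% limit for 4 values, which chance passes in about 1 of 20 groups). Each of the 10 genes was looked at in each of the 4 groups of arrays, so that some such gaps arise by chance. The pooled array read 15.17 for Inhba where the nearest myofiber-associated 48-hr array read 14.70 (gap 0.853 of the range), and 11.33 for Tgfb1 where the nearest read 10.94 (0.851). Dispersed 72-hr array 8 read 14.71 for Id2 where the nearest read 14.47 (0.862).

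The change of Id3 from 48 to 72 hr differed between the cultures by -0.60 on the log2 scale (dispersed minus myofiber-associated, limma, adjusted p = 0.00251). Its mean was higher at 72 than at 48 hr in both cultures, by 0.18 in dispersed and 0.79 in myofiber-associated myoblasts.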

How the results depend on the processing

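Signal over background limits Mstn and the second Bmp4 probe, and 4 arrays per group limit the rest. In dispersed myoblasts the number of genes called among the 10 went from 2 to 1 under 75th percentile scaling, no filter and the filter on signal well above background, and was 1 to 2 with 1 array left out. For the difference between cultures it went from 1 to 2 under 75th percentile scaling, the mean of probes and the slide row as a block, to 3 in the authors' table, and was 1 to 3 with 1 array left out. The other 3 comparisons stayed within 1.5 times, at 2 to 4, 2 to 3 and 3 to 4 with 1 array left out. No called change turned its direction. Changes near 0 did: Id1 in dispersed myoblasts (-0.013 under normexp, -0.015 in the authors' table, -0.063 to 0.043 with 1 array left out), Mstn there (-0.052 under normexp), Tgfb2 at 48 hr between cultures (-0.075 with the mean of probes, -0.045 to 0.14 with 1 array left out) and over time in myofiber-associated myoblasts (-0.12 to 0.15), and Bmp4 in the difference between cultures (-0.30 to 0.17). Over all genes, the 1113 calls in myofiber-associated myoblasts became 468 without the filter, 571 with the slide row as a block, 5780 in one fit of 16 arrays, 3787 in the authors' table and 232 to 1991 with 1 array left out. The 701 calls for the difference became 409, 3823 and 295 to 2368 without the filter, in the authors' table and with 1 array left out. The 2784 calls in dispersed myoblasts became 999 in one fit and 1679 to 2507 with 1 array left out, and the 5513 at 72 hr between cultures 3315 to 5627. Without the pooled array the calls rose to 1991 in myofiber-associated myoblasts and to 2368 for the difference, the highest counts with 1 array left out. Without myofiber-associated 72-hr array 4 they rose to 1392 and 1766. At 48 hr between cultures the 8773 calls became 6374 to 11144 with 1 array left out, the highest again without the pooled array. Fewer arrays enter when 1 is left out, and the causes of these shifts were not tested. No paired analysis was possible because the groups compared share no replicate numbers.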

Other observations

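Marker lists of other cell types, beside which none of the 10 genes was set above, gave the following counts. Over all genes, 13.7% passed over time in the dispersed and 5.48% in the myofiber-associated culture. Between the cultures 43.2% of all genes passed at 48 hr and 27.1% at 72 hr. Of 9 markers of leukocytes and macrophages tested, 3 fell over time in the dispersed culture, and 0 passed limma in the myofiber-associated culture, where 4 were lower at an unadjusted p under 0.05. At 48 hr 5 of these 9 were lower and 1 was higher in the myofiber-associated than in the dispersed culture, and at 72 hr 4 were lower and 1 was higher. Of 5 Schwann cell markers tested, 4 fell over time in the dispersed culture, and 4 were lower in the myofiber-associated culture at 48 hr and 2 at 72 hr. Of 3 tenocyte markers tested, 2 were higher and 1 was lower in the myofiber-associated culture at 48 hr, and 1 was higher at 72 hr. Of 9 markers of differentiating myocytes, 4 rose and 3 fell over time in the dispersed culture, and 2 rose in the myofiber-associated culture. At 48 hr 6 of these 9 were higher and 1 was lower in the myofiber-associated culture, and at 72 hr 5 were higher. Ckm is both on this list and on that of the adult myofiber markers, which were higher in the same comparisons. The part of adult myofibers in these counts was not tested.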
